A study of Mus musculus with 4 samples.

Results

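A set of 45 genes of fatty acid synthesis, storage and oxidation was followed in dendritic cells (DC) grown from mouse bone marrow, a cell type that presents antigen to T cells. A gene counted as measured when the value table held a probe set annotated with its symbol and no other, and its brightest probe set by mean signal stood for it. That gave 42 of the 45 genes, out of 12393 genes measured in all. Agpat2, Acsl1 and Acsl3 had no such probe set and were not analysed here. The study hybridised total RNA to 4 Affymetrix arrays. Immature DC were compared with NKT-modulated DC, and each group has 2 arrays; natural killer T (NKT) cells are lipid-reactive T cells that recognise antigen on CD1d. All samples were of the C57BL/6 strain, and per the design text RNA was taken from CD11c cells. The sources used here do not say how or for how long the NKT cells were applied, or how old the animals were. Separate cultures are not stated for the arrays of a group, so p-values reflect array-to-array spread alone, possibly a technical one.

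Cells build fatty acids in the cytosol from acetyl-CoA, which ATP citrate lyase and acetyl-CoA synthetase supply, through acetyl-CoA carboxylase and fatty acid synthase. Acyl chains are then joined to glycerol and packed into lipid droplets, from which lipases release them. For oxidation the chains enter mitochondria as carnitine esters and are shortened by dehydrogenation, hydration, a further dehydrogenation and thiolysis, with electrons passed on through the electron transfer flavoprotein. In myeloid cells these routes supply membranes and fuel, and in DC lipid stores are known to bear on antigen presentation.

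The labelled cell type was checked against 10 DC markers, which had signals from 333 to 14860 on all arrays. The 9 macrophage markers, treated further below, had signals from 418 to 12410, so brightness alone does not tell these cell types apart. Of the 10 DC markers, 2 rose and 0 fell: Batf3 rose 3.33-fold and Irf8 1.59-fold. Flt3 was 1.45-fold lower in NKT-modulated DC and was not called. Itgax, the gene of CD11c, had signals of 5442 and 5537 in immature DC and 5253 and 4643 in NKT-modulated DC. Of 16 measured T and NKT cell markers, 10 rose and 0 fell, and their summed signal was 1386 and 1459 in immature DC against 8280 and 6463 in NKT-modulated DC. Cd3g, a chain of the T cell receptor complex, rose from 19.1 and 15.4 to 1401 and 1046. In RNA of a mixed sample, fewer cells of a type and less RNA per cell cannot be told apart. The Gapdh 3′ to 5′ signal ratio, a measure of RNA integrity and labelling, was 1.76 and 1.44 in immature DC and 1.87 and 1.98 in NKT-modulated DC, whereas the Actb ratio was 1.18 and 1.16 against 1.09 and 1.18. Of 5 B cell markers 2 rose and 0 fell, with sums of 584 and 668 against 1396 and 1454, with Ms4a1, which encodes CD20, at 45.4 to 48.7 on all arrays. Of 7 neutrophil markers 2 rose and 0 fell, with sums of 871 and 1047 against 1528 and 1274. Of 7 NK cell markers 2 rose and 1 fell, with sums of 843 and 891 against 856 and 791. The B cell sum was mostly Blnk, at 471 and 561 against 1044 and 1135. The neutrophil sum was mostly S100a8, at 468 and 666 against 818 and 717. Cd79b, the other B cell marker called, rose 5.53-fold, from 35.3 and 32.0 to 270 and 210. Besides S100a8, Ngp of the neutrophil list rose 1.92-fold, from 180 and 170 to 346 and 265. S100a9 and Ltf were apart, higher in NKT-modulated DC and not called. Cd79a and Pax5 of the B cell list and Mpo, Elane and Camp of the neutrophil list overlapped between groups and were not called. T lineage signal, the B cell and neutrophil sums, Batf3, Irf8 and the Gapdh ratio thus moved with the groups compared below. Their part in the results was not tested.

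Most of the measured genes of fatty acid metabolism did not pass the test, and those that did went both ways. Of the 42 genes, 5 fell in NKT-modulated DC (11.9%), namely Fasn, Acss2, Lipe, Acadm and Hadh, and 3 rose (7.14%), namely Fabp4, Mgll and Etfdh. Over all 12393 genes, 6.9% were called lower and 5.99% higher, by limma with a Benjamini-Hochberg adjusted p under 0.05 over all probe sets tested. The share of members that rose was near this background, and the difference in falling genes amounts to a few genes. Groups that do not overlap on the normalised log2 scale were found for 18 lower and 9 higher members, against 32.5% and 23.8% of all genes. Synthesis genes had 2 of 6 lower and 0 higher, storage genes 1 of 18 lower and 2 higher, and oxidation genes 2 of 18 lower and 1 higher. The median log2 change was -0.13 for synthesis, -0.01 for storage and -0.17 for oxidation, where all genes had -0.04. No filter on dim probe sets was applied. Members were brighter than the background: 3 of the 42 had a mean signal under 100, against 4970 of all 12393 genes. The synthesis median rests on few genes and moved with the settings: it was -0.52 with a mean signal of at least 50 or 100, which leaves out Acaca and Thrsp, 0.06 with centring on medians, and -0.29 to -0.06 with 1 array left out. With the minimum of 50 or 100, Acly was also called lower (adjusted p = 0.0424 and 0.0374), and so were 13.9% and 16.2% of all genes.

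**Figure D1:**
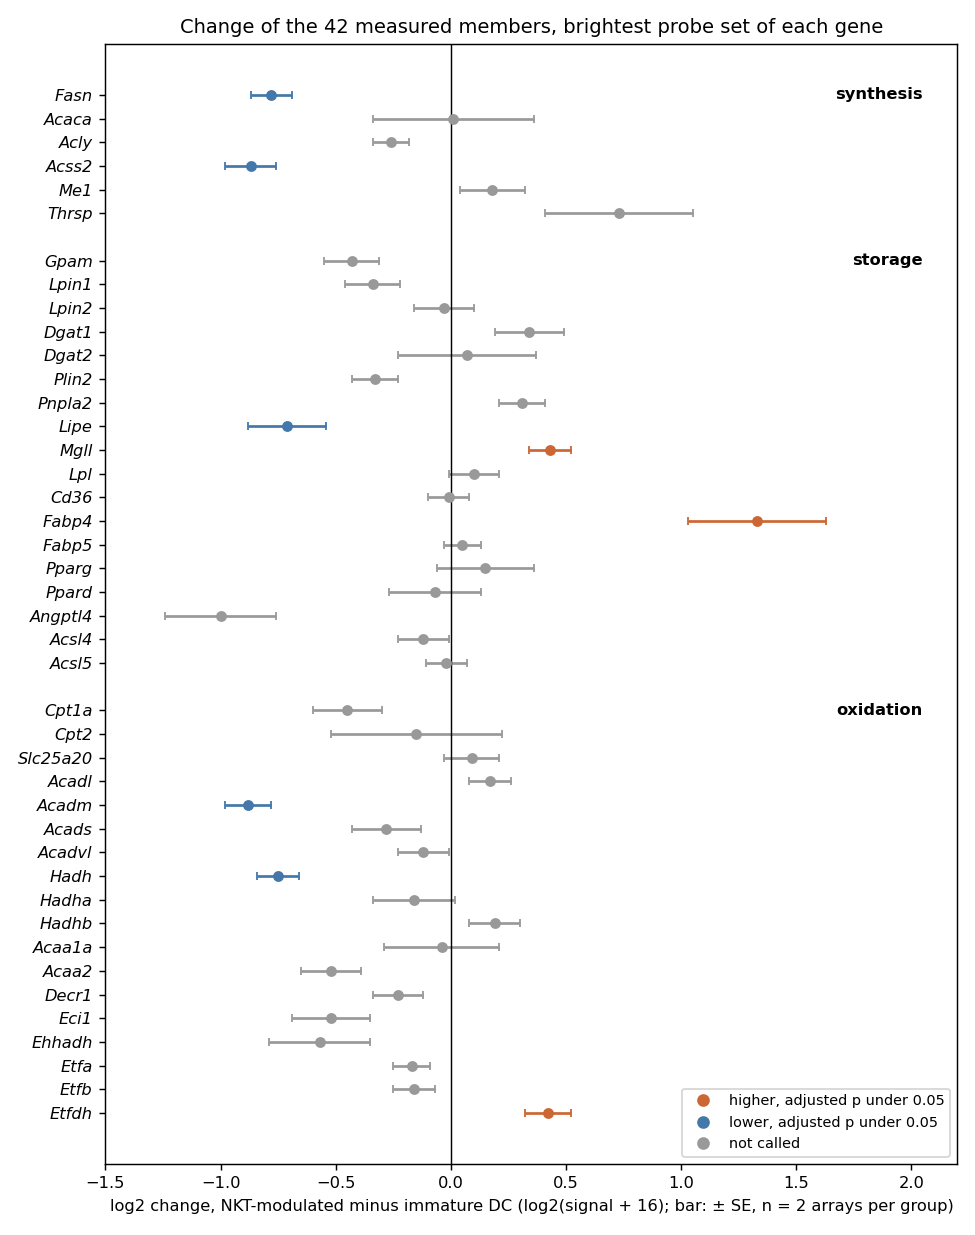
Log2 change of each measured member, NKT-modulated minus immature DC, on the log2(signal + 16) scale after quantile normalization, with bars of 1 SE and n = 2 arrays per group. Blue points were called lower and orange points higher at an adjusted p under 0.05; 34 of the 42 genes are grey, and the called changes run from -0.88 for Acadm to 1.33 for Fabp4.

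Among the synthesis genes, fatty acid synthase and the cytosolic acetyl-CoA synthetase fell. Fasn, the multifunctional enzyme that assembles palmitate, had signals of 1746 and 2052 in immature DC and 1054 and 998 in NKT-modulated DC. Both NKT-modulated arrays lay well below both immature arrays. The log2 change was -0.78 ± 0.09 (SE; every change given here rests on n = 2 arrays per group), or 1.72-fold lower, with limma adjusted p = 0.00353. Acss2, which makes acetyl-CoA from acetate, had signals of 694 and 779 in immature DC against 342 and 352 in NKT-modulated DC. It fell by 0.87 ± 0.11, or 1.83-fold (adjusted p = 0.00587), and its other probe set fell too, by 0.60 ± 0.11 (adjusted p = 0.0231). The groups were clearly apart for both genes, and the calls of both held without any 1 of the arrays.

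The other synthesis genes did not pass. Acly, the ATP citrate lyase that exports acetyl units from citrate, had signals of 6144 and 6231 in immature DC and 5567 and 5086 in NKT-modulated DC. Its change was -0.26 ± 0.08 (adjusted p = 0.0848) by the brightest of 5 probe sets. A dimmer Acly probe set, with signals of 3200 and 3427 against 2358 and 2080, was called lower at -0.55 ± 0.08 (adjusted p = 0.0115), so the gene's call depends on the probe set. Me1, the malic enzyme that supplies NADPH, changed by 0.18 ± 0.14 (adjusted p = 0.511), with deposited signals between 285 and 303 on all arrays. Acaca, the acetyl-CoA carboxylase of the cytosol, was seen by a single dim probe set with signals from 22.7 to 46.6 and a change of 0.01 ± 0.35 (adjusted p = 0.995). Thrsp, a lipogenic protein induced by thyroid hormone, was also dim, with signals of 43.9 and 24.3 against 54.9 and 75.3 (0.73 ± 0.32, adjusted p = 0.227). The SE of these dim genes was several times that of Fasn.

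The promoters of the falling synthesis genes are shown because both genes fell together. The RefSeq promoter table of build GRCm38.p6 gave a window of 300 bases, from 250 before to 50 after the annotated start, for 34 of the 42 genes. Each sequence below is the 251 bases that end with the annotated start, which is the capital at its end. The Fasn stretch is chr11:120824547-120824797 on the minus strand and the Acss2 stretch is chr2:155517793-155518043 on the plus strand.
Fasn: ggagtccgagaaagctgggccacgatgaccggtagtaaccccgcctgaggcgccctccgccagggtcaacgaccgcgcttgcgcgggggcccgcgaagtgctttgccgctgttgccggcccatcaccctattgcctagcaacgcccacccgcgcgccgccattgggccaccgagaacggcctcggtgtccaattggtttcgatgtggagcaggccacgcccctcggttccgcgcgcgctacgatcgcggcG
Acss2: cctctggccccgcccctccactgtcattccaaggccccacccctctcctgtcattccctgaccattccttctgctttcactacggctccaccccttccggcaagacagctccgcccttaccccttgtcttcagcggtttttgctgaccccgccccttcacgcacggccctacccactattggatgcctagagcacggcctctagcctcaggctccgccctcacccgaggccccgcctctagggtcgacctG
Windows were searched on both strands for TCACNCCAC, a form of the sterol regulatory element, for direct repeats read by PPAR and RXR, 2 half-sites AGGTCA or, more loosely, 2 half-sites AGGNCA with 1 base between, of which the first form is contained in the second, and for the E-box CACGTG. Neither the Fasn nor the Acss2 window held any of these letters. The sterol element was found in 1 of the 34 genes, Ehhadh, against 1.44% of all genes with a window. The direct repeats were found in 0 of 34, against 0.0481% and 0.451% of all genes. The E-box was found in 4 of 34, Lpin2, Plin2, Lipe and Mgll, against 8.09%. A match or its lack in these windows is a description of letters only.

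Genes that join acyl chains to glycerol did not pass the test. Gpam, the mitochondrial acyltransferase that starts glycerolipid synthesis, had signals of 556 and 729 in immature DC and 421 and 404 in NKT-modulated DC, a change of -0.43 ± 0.12 (adjusted p = 0.0889). Lpin1, a phosphatidate phosphatase, had 881 and 1099 against 648 and 745 (-0.34 ± 0.12, adjusted p = 0.139). The groups did not overlap for either gene, but neither difference was large enough against the spread to be called. Its relative Lpin2 changed by -0.03 ± 0.13. Dgat1 and Dgat2, unrelated enzymes that both complete triglyceride, changed by 0.34 ± 0.15 and 0.07 ± 0.30 (adjusted p = 0.234 and 0.932).

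Lipid droplet and lipase genes split in direction. Plin2, the coat protein of droplets in most cells, had signals of 5486 and 5591 in immature DC and 4205 and 4770 in NKT-modulated DC (-0.33 ± 0.10, adjusted p = 0.103). The lipases Pnpla2, Lipe and Mgll act in turn on droplet triglyceride. Pnpla2, the first of them, had 678 and 763 against 800 and 801, a change of 0.31 ± 0.10 that did not pass (adjusted p = 0.105). Lipe, the hormone-sensitive lipase that acts next, had 335 and 394 against 209 and 162. It fell by 0.71 ± 0.17, or 1.64-fold (adjusted p = 0.0484). Mgll, which cleaves the last chain and also degrades the endocannabinoid 2-AG, had 1686 and 2051 against 2346 and 2512. It rose by 0.43 ± 0.09, or 1.34-fold (adjusted p = 0.0367).

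Lipe and Mgll thus moved in opposite directions with no overlap between groups, but neither call held with an array left out. Without any 1 array Lipe was not called, with adjusted p from 0.0819 to 0.188, and Mgll was not called either, from 0.0713 to 0.175. For Mgll the other 3 probe sets had changes of 0.19, 0.08 and -0.37, none called, and the mean of its probe sets gave 0.08 (adjusted p = 0.762). Cyclic loess and a pseudocount of 64 ended the Lipe call (adjusted p = 0.0597 and 0.0574), and leaving out normalization ended that of Mgll (0.120).

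The promoters of these lipase genes are shown because each holds 1 E-box although the genes moved oppositely. In the stretches below, the E-box and the annotated start, the last base, are in capitals. The Lipe stretch is chr7:25395987-25396237 on the minus strand, with the E-box at -155 to -150 from the start, counted as 0. The Mgll stretch is chr6:88724162-88724412 on the plus strand, with the E-box at -44 to -39. Each gene has 2 windows in the table, and the one with the match is printed.
Lipe: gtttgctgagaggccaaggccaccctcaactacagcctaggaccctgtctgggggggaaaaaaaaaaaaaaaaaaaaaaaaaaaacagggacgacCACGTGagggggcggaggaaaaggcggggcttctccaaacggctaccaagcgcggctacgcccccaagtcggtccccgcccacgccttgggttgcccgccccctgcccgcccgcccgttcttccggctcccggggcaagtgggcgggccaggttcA
Mgll: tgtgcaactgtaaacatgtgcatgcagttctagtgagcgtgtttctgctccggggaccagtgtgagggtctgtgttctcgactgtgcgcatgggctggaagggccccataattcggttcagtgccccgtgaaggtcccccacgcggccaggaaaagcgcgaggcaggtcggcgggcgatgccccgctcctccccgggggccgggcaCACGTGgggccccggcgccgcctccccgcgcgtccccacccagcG

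Of the genes of fatty acid uptake and binding, Fabp4 alone was called. Fabp4, a cytosolic fatty acid binding protein of adipocytes, macrophages and some DC, had signals of 1119 and 2483 in immature DC and 4511 and 3786 in NKT-modulated DC. Both NKT-modulated arrays were above both immature arrays, and the immature arrays themselves differed widely. Its change was 1.33 ± 0.30, or 2.52-fold higher (adjusted p = 0.0434). A second bright Fabp4 probe set, with 1157 and 1838 against 4024 and 3464, gave 1.40 ± 0.17 (adjusted p = 0.00453). The pair of dim ones had changes of 0.89 ± 0.23 and 0.64 ± 0.27 and was not called. Without NKT-modulated replicate 1 or 2 the brightest probe set lost its call (adjusted p = 0.170 and 0.120), as with a pseudocount of 64 (0.0549) and without the intensity trend (0.139). The size turned on the immature arrays, with a change of 0.83 without replicate 1 and 1.87 without replicate 2.

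Defining adipocyte genes were dim in the same arrays. The 5 measured adipocyte markers, among them Adipoq and Lep, had signals from 1.25 to 68.4, summed to 92 and 104 in immature DC and 113 and 105 in NKT-modulated DC, and 0 of 5 were called. Macrophage markers had 1 of 9 higher and 4 lower, with sums of 31942 and 31241 in immature DC and 31071 and 30596 in NKT-modulated DC. Within that list Mertk, a receptor for dying cells, rose 2.13-fold, and the complement genes C1qa and C1qb fell 2.22-fold and 2.13-fold. The part of macrophage markers in the Fabp4 change was not tested.

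Fabp5, the epidermal relative of Fabp4, had signals of 18443 and 15787 in immature DC and 19633 and 18348 in NKT-modulated DC (0.05 ± 0.08, adjusted p = 0.744). Its probe set had the highest signal of the whole array on 3 of the 4 arrays, at the top of the measured range. A rise there could have gone unseen, and the gene has near-identical pseudogene copies that the probe set may not separate. Its dimmer probe set, with 11012 and 11777 against 13871 and 13185, gave 0.13 ± 0.09 (adjusted p = 0.455). Lpl, the lipase that frees fatty acids from lipoproteins, had 14048 and 10601 against 14262 and 13515 (0.10 ± 0.11, adjusted p = 0.661). Cd36, a scavenger receptor that takes up fatty acids, had 4825 and 4991 against 4874 and 5072 (-0.01 ± 0.09, adjusted p = 0.964). By the brightest probe set the immature and NKT-modulated arrays overlapped for Fabp5, Lpl and Cd36. On the normalised log2 scale they were apart, higher in NKT-modulated DC and not called, for the dimmer Fabp5 probe set. The same held for the dimmest Cd36 probe set (0.27 ± 0.18), whose deposited signals of 228 and 209 against 220 and 240 overlapped.

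**Figure D2:**
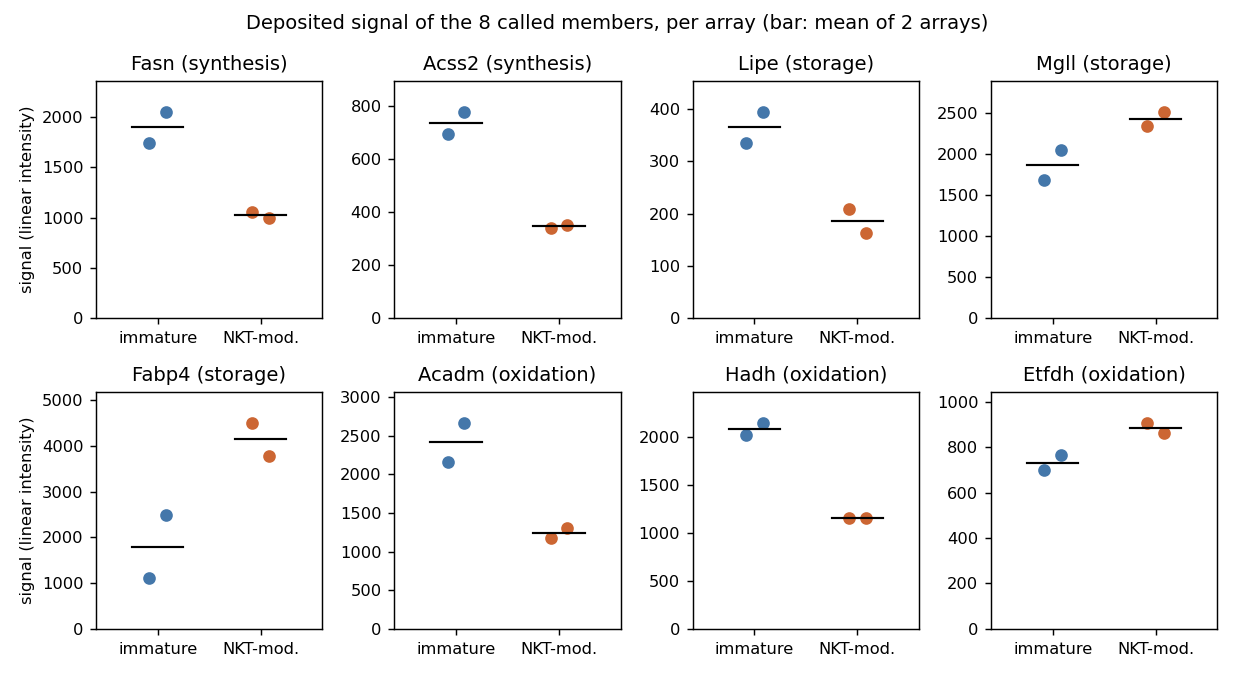
Deposited signal (linear intensity, axes from 0) of the 8 called members on each array, immature DC in blue and NKT-modulated DC in orange, with bars at the mean of 2 arrays. The groups are apart in every panel; Hadh lies at 1154 and 1162 in NKT-modulated DC, whereas the immature Fabp4 arrays lie at 1119 and 2483.

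The lipid-sensing nuclear receptors were not called. Pparg, the PPAR of adipocytes and of lipid-handling myeloid cells, had signals of 188 and 298 in immature DC and 214 and 239 in NKT-modulated DC (0.15 ± 0.21, adjusted p = 0.746). Ppard, the widely expressed PPAR, had signals between 2.1 and 6.2, below the pseudocount of 16, so no change could be read from its probe set. Angptl4, a secreted inhibitor of lipoprotein lipase and a classic PPAR target, had 135 and 189 against 71.4 and 57.9. These groups were apart, but the change of -1.0 ± 0.24 stood just outside the threshold (adjusted p = 0.0503). It was called when probe sets with a mean signal under 50 were left out (adjusted p = 0.0151), but not with 1 array left out (0.120 to 0.252), and the mean with its other, very dim probe set gave -0.39 (0.445). Over all alternatives its adjusted p ran from 0.0127 to 0.445.

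The acyl-CoA synthetases measured here, which activate fatty acids, were not called. Acsl4, which prefers arachidonic acid, had signals of 2207 and 2909 in immature DC and 2329 and 2226 in NKT-modulated DC (-0.12 ± 0.11, adjusted p = 0.573). Acsl5 had 4465 and 4798 against 4395 and 4910 (-0.02 ± 0.09, adjusted p = 0.950). The groups overlapped for both.

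In the carnitine shuttle, which carries long chains into mitochondria, the brightest probe sets did not pass. Cpt1a, the rate-limiting acyltransferase of the outer membrane, had signals of 1120 and 1008 in immature DC and 764 and 634 in NKT-modulated DC (-0.45 ± 0.15, adjusted p = 0.121). Another Cpt1a probe set had 895 and 994 against 337 and 253, a fall of 1.46 ± 0.15, or 2.75-fold (adjusted p = 0.00271). The third gave -0.53 ± 0.16 (adjusted p = 0.101). All 3 pointed lower, with no overlap between groups, and differed in size, and the mean of the 3 gave -0.81 (adjusted p = 0.00976). Cpt2, the inner-membrane partner, varied within groups, with 724 and 456 against 639 and 322 (-0.15 ± 0.37). Slc25a20, the carnitine-acylcarnitine carrier between them, changed by 0.09 ± 0.12 (adjusted p = 0.714).

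**Figure D3:**
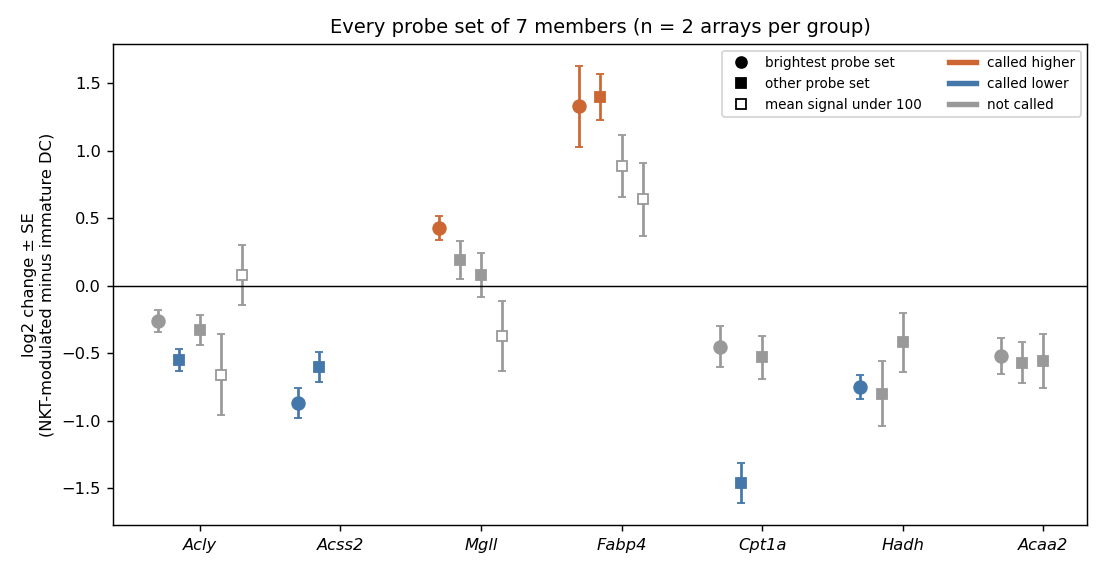
Log2 change ± SE (NKT-modulated minus immature DC, n = 2 arrays per group) of every probe set of 7 members, from bright to dim within a gene; open squares have a mean signal under 100. Cpt1a spans -0.45 to -1.46 and Mgll 0.43 to -0.37, whereas the bright Fabp4 probe sets lie at 1.33 and 1.40.

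Acyl-CoA dehydrogenases take the first step of each cycle and differ in the chain length they accept. Acadm, for medium chains, had signals of 2158 and 2670 in immature DC and 1182 and 1309 in NKT-modulated DC. It fell by 0.88 ± 0.10, or 1.84-fold (adjusted p = 0.00452), with the groups clearly apart. Acads, for short chains, had 294 and 325 against 207 and 226 (-0.28 ± 0.15, adjusted p = 0.334). Acadl and Acadvl, for long and very long chains, changed by 0.17 ± 0.09 and -0.12 ± 0.11 (adjusted p = 0.313 and 0.592). Acadm was the only 1 of the 4 dehydrogenases called, and the differences between the 4 were not tested.

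Among the enzymes of the later steps, Hadh fell. Hadh, the dehydrogenase of the third step for medium and short chains, had signals of 2026 and 2151 in immature DC and 1154 and 1162 in NKT-modulated DC. It fell by 0.75 ± 0.09, or 1.69-fold (adjusted p = 0.00405), and its other probe sets gave -0.80 ± 0.24 and -0.42 ± 0.22, not called. The calls of Acadm and Hadh held without any 1 array; they ended without the intensity trend (adjusted p = 0.0562 and 0.0576), as did that of Fasn (0.0528). Hadha and Hadhb, the subunits of the trifunctional protein that serves long chains, changed by -0.16 ± 0.18 and 0.19 ± 0.11 (adjusted p = 0.658 and 0.351).

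The thiolase genes and auxiliary enzymes did not pass. Acaa2, the mitochondrial thiolase, had signals of 928 and 1222 in immature DC and 628 and 705 in NKT-modulated DC. Its change of -0.52 ± 0.13 missed the threshold (adjusted p = 0.0515), its other probe sets gave -0.56 and -0.57, and the mean of all 3 passed at -0.55 (adjusted p = 0.0316). It was not called without any 1 array (adjusted p from 0.073 to 0.211) or without the intensity trend (0.157), and over all alternatives its adjusted p ran from 0.0236 to 0.211. Acaa1a, the peroxisomal thiolase, has a close paralog, Acaa1b, that its probe set may not separate. By the brightest probe set Acaa1a changed by -0.04 ± 0.25, with overlapping groups. Its dimmer probe set, with 136 and 171 against 94.9 and 83.2, gave -0.54 ± 0.22, with groups apart and no call (adjusted p = 0.191). Eci1, an isomerase for unsaturated chains, had 380 and 352 against 208 and 223 (-0.52 ± 0.17, adjusted p = 0.112). Decr1, a reductase for unsaturated chains, changed by -0.23 ± 0.11 (adjusted p = 0.245), and Ehhadh, the bifunctional enzyme of peroxisomes, by -0.57 ± 0.22 (adjusted p = 0.167). The dimmer Decr1 probe set gave -0.53 ± 0.24 (adjusted p = 0.231). For Acaa2, Eci1, Decr1 and Ehhadh the groups were apart, lower in NKT-modulated DC.

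The electron transfer genes did not move as 1. Etfdh, the membrane oxidoreductase that passes electrons to ubiquinone, had signals of 699 and 765 in immature DC and 908 and 860 in NKT-modulated DC. It rose by 0.42 ± 0.10, or 1.34-fold (adjusted p = 0.0453). This call was lost without any 1 array, with adjusted p from 0.115 to 0.200, and without normalization (0.27, adjusted p = 0.265). Etfa and Etfb, the subunits of the flavoprotein that feeds it, changed by -0.17 ± 0.08 and -0.16 ± 0.09 (adjusted p = 0.254 and 0.330). Of the 18 oxidation genes, 14 had a change below 0, against 6827 of all 12393 genes. The oxidation median lay below that of all genes by 0.13, and by 0.10 to 0.22 under the other scalings.

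Other genes of the pathway, from 6 lists that exclude the members, had 16 called lower and 0 called higher of 90 measured (17.8% lower, where 6.9% of all genes were). The lists were chosen with earlier results of these data known, so these shares are a description only. Under the other scalings 13 to 19 were lower and 0 to 1 higher, whereas without immature replicate 1 or 2 or NKT-modulated replicate 2 only 6 were lower, where 3.13, 3.24 and 3.28% of all genes were. Without NKT-modulated replicate 1 only 3 were lower (2.46% of all genes), and without the intensity trend 3 (2.19%). Of 10 other synthesis genes, 4 fell. Idh1, a cytosolic source of NADPH, had signals of 4050 and 4357 in immature DC and 1456 and 1725 in NKT-modulated DC, a fall of 1.35 ± 0.11 (adjusted p = 0.00121). Aacs, which activates acetoacetate, Me2, a mitochondrial malic enzyme, and Mid1ip1, a partner of acetyl-CoA carboxylase, fell by 0.96 ± 0.19, 0.69 ± 0.14 and 0.62 ± 0.11. Of 10 lipogenic regulators, 2 fell: Scap, the escort of SREBP, by 0.48 ± 0.09 (adjusted p = 0.0201) and Rxra, the PPAR and LXR partner, by 0.71 ± 0.15 (adjusted p = 0.0318). Srebf1, the SREBP that drives lipogenic genes, had 1218 and 937 against 583 and 621 and did not pass (-0.66 ± 0.19, adjusted p = 0.0861).

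In the list of 22 other oxidation genes, 5 were called lower (22.7%) and 0 higher, where 6.9% of all genes were lower and 5.99% higher. The median change was -0.29, against -0.04 for all genes. With 1 array left out, only 3 to 6 of the 90 genes of all lists together were lower, where 2.46 to 3.28% of all genes were. Acox3, a peroxisomal oxidase, fell by 1.40 ± 0.22 (adjusted p = 0.0118), from 190 and 235 to 69.8 and 55.7. Hsd17b4, the peroxisomal multifunctional enzyme, fell by 0.79 ± 0.08, Echs1, the short-chain hydratase, by 0.70 ± 0.12, Eci2, an isomerase, by 0.66 ± 0.09 and Ech1, another isomerase, by 0.43 ± 0.09. The oxidation genes that fell thus included peroxisomal as well as mitochondrial enzymes.

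Of 16 other uptake and activation genes, 4 fell: the scavenger receptor Msr1 by 0.53 ± 0.08, the endocytic receptor Lrp1 by 0.61 ± 0.11, the acyl-CoA binding protein gene Dbi by 0.49 ± 0.09 and Slc27a3, of the fatty acid transport family, by 1.27 ± 0.26. Slc27a3 was dim, at 45.3 and 52.0 against 8.68 and 12.6. Of 19 other storage and lipolysis genes 1 fell, Abhd5, the activator of Pnpla2, by 0.64 ± 0.10 (adjusted p = 0.0121). The uptake list thus had 25% called lower and the storage list 5.26%, where 6.9% of all genes were. Of 13 genes of the PPAR program 0 were called by limma, and 4 had an unadjusted p under 0.05, as did 3491 of all 12393 genes. That share was thus near the share over all genes. Of these 13 genes, 7 had a mean signal under 100 and 2 had all signals under 16, so changes of these dim genes could hardly be called. In the storage and uptake lists, 10 of 19 and 10 of 16 genes had a mean signal under 100.

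**Figure D4:**
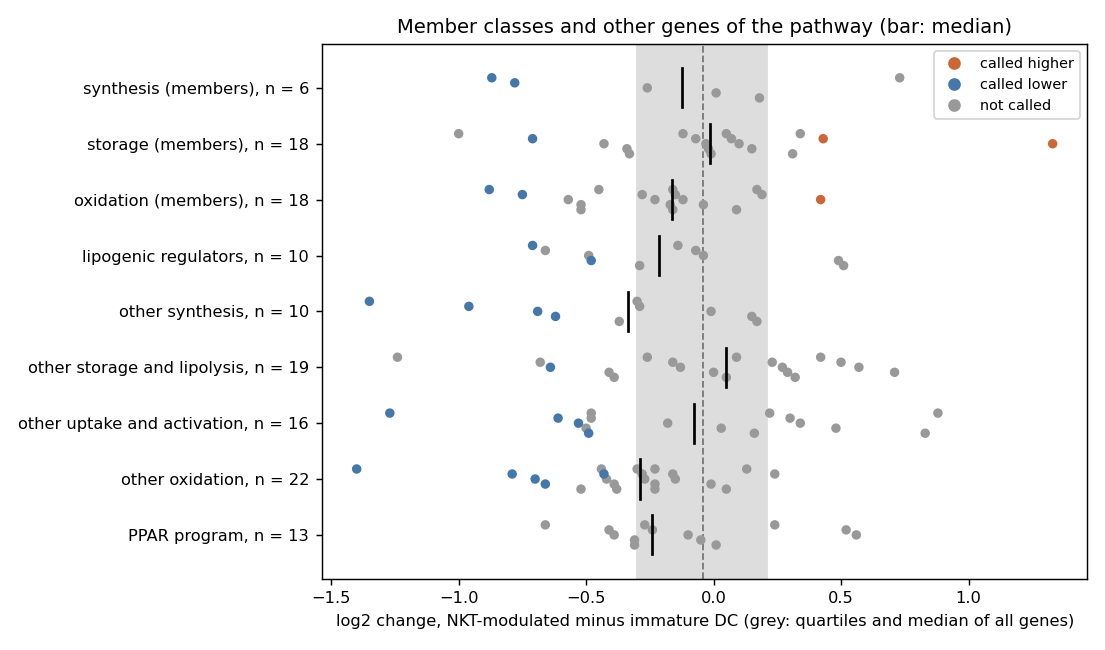
Log2 change (NKT-modulated minus immature DC) of each measured gene in the 3 member classes and in 6 lists of other pathway genes, with a bar at each median; the grey band spans the quartiles of all genes, -0.30 to 0.21, and the dashed line is their median, -0.04. Blue points, called lower, occur in all lists but the PPAR program, and orange points, called higher, are Mgll, Fabp4 and Etfdh.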

How the data were processed

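Mouse DC RNA of 2 immature and 2 NKT-modulated samples was measured on Affymetrix arrays. The authors deposited intensities on a linear scale, with 1 signal for each probe set on each array, from GCOS (Affymetrix's software), per the submitters' processing notes. The sources used here do not give the summary algorithm or scaling, and the design text's log transformation is not visible in the values. The 2% trimmed mean of an array ran from 585.3 to 655.8. Depth has no meaning for arrays; their number limits the precision.

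Of 22690 rows, 64 controls were left out and 22626 probe sets tested. Names came from the platform's annotation, updated by gene ID through RefSeq (GRCm38.p6; 20351 matched): 20380 probe sets had 1 symbol, 691 several and 1555 none. Signals were turned into log2(signal + 16), since quartiles differed by up to 0.270 between arrays, then normalized by quantiles. On this scale folds of dim genes are understated, and normalization also shifts folds of brighter genes away from the ratios of deposited signals. Limma 3.58.1 in R 4.3.3 (lmFit, eBayes with intensity trend, two-sided) had 2 residual degrees of freedom; Benjamini-Hochberg adjustment ran over all probe sets, threshold 0.05. Steps were tested on simulated data with 200 of 22626 probe sets changed in each of 5 runs, dim ones included. Changes of log2 size 0.5, 1, 2 and 3 were called in 1.6%, 22%, 62.8% and 93.2% of cases, and 5.07% of calls were false. A gene that was not called is thus not shown to be unchanged. All measured members are named, with up to 4 called genes per pathway list by smallest p; Ech1 beyond that limit, Srebf1, Itgax, Cd3g, Adipoq and Lep were chosen after their values were seen. Members and lists were chosen with earlier results of these data known.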

Additional observations from a re-analysis of the deposited data

How the results depend on the processing

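With 2 arrays per group, small changes of single genes could not be separated from the spread, and dim probe sets (Acaca, Thrsp, Ppard) bear no reading. The counts of called genes in the 3 classes were small and moved with the settings; where no reason is given, the cause was not tested. Over all genes, 742 were higher and 855 lower (46.5% of calls higher); without further normalization the share was 35.2%. That scaling put the median change of all genes at -0.119 against -0.042, and centring on medians at 0.060.

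Storage genes called lower numbered 2 in place of 1 when adjusted over 1 probe set per gene, with a pseudocount of 1 or without normalization, 0 with cyclic loess or a pseudocount of 64, and 3 when probe sets with a mean signal under 50 or under 100 were left out. Those minimums also gave 3 synthesis genes lower in place of 2 (Acly added), and raised the share of all genes called lower from 6.9% to 13.9% and 16.2%. Storage genes called higher numbered 1 in place of 2 with a pseudocount of 64, with the mean of all probe sets or without normalization. Oxidation genes called lower numbered 4 in place of 2 with the mean of all probe sets or a minimum signal of 100, and 5 without normalization; those called higher numbered 0 in place of 1 with a pseudocount of 64 or without normalization. Without the intensity trend 384 genes were higher and 272 lower, with 1 synthesis gene lower (Acss2) and 0 storage or oxidation genes called. At an adjusted p under 0.001, the level in the design text, 131 genes were higher and 22 lower, and 0 members were called, which the stricter level itself accounts for.

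Leaving out each array in turn gave 397 to 510 genes higher and 305 to 406 lower, 2 synthesis and 2 oxidation genes lower each time, 0 to 1 storage genes higher, 0 storage genes lower and 0 oxidation genes higher. Fasn, Acss2, Acadm and Hadh stayed called without any 1 array.

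Of 624 changes of single members under alternatives, 36 turned direction, all of genes that were not called. Without normalization these were Acaca (-0.02), Acsl5 (0.01), Cd36 (0.02), Dgat2 (-0.08), Me1 (-0.01), Pparg (-0.07) and Slc25a20 (-0.03). With cyclic loess they were Acaa1a (0.02), Acsl5 (0.03), Cd36 (0.04) and Lpin2 (0.03), and with median centring Acsl4 (0.03), Acsl5 (0.18), Cd36 (0.20) and Ppard (0.11). A pseudocount of 64 turned Acaca (-0.0016), and the mean of all probe sets Cd36 (0.12) and Lpin2 (0.14). Over the fits without 1 array the changes ran from -0.40 to 0.32 for Acaa1a, -0.35 to 0.36 for Acaca, -0.24 to 0.01 for Acsl4, -0.12 to 0.09 for Acsl5, -0.08 to 0.06 for Cd36 and -0.60 to 0.30 for Cpt2. They ran from -0.23 to 0.36 for Dgat2, -0.14 to 0.08 for Lpin2, -0.06 to 0.24 for Lpl, -0.20 to 0.05 for Ppard, -0.09 to 0.38 for Pparg and -0.04 to 0.23 for Slc25a20. No paired analysis was possible because the labels give the groups no shared replicate numbers.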
